A study of Mus musculus with 12 samples.

Results

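The collagen, laminin and basement membrane genes described here are the protein-coding genes whose symbol is that of a collagen chain (Col followed by a type number, a and a chain number), a laminin chain (Lama, Lamb or Lamc with a number), Nid1, Nid2, Fn1, Sparc or Hspg2. The deposited table held 60 such genes among 34513. They comprised 44 collagen chains, 11 laminin chains, the 2 nidogens, the perlecan gene Hspg2, fibronectin (Fn1) and Sparc. Of the 60, 53 passed edgeR's expression filter and were tested among 18338 genes, and the other 7 (Col4a6, Col6a4, Col6a5, Col6a6, Col13a1, Col24a1 and Col26a1) had at most 0.187 CPM in each of the 12 libraries. CPM here are counts relative to library size after TMM scaling, which makes the libraries comparable.

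RNA was sequenced from 3 cultured mouse lines, Melan-A (labelled nontumorigenic) and the B16 melanoma lines B16F0 and B16F10, each untreated or given SX-682 (an inhibitor of the chemokine receptors CXCR1 and CXCR2). That gave 6 groups with 2 libraries apiece. Each line is a single established line, so a difference between lines is a difference between 3 lines and not between classes of tumour. Whether the 2 libraries of a group came from separate cultures is not stated, so p-values measure the spread between these libraries, which may be technical. How much SX-682 these cultures received, and for how long, is not given in the sources used here. Controls are labelled as given no treatment, without mention of a vehicle, so a vehicle effect cannot be told apart from that of SX-682.

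Collagens are trimers of chains that carry long repeats of a glycine followed by any 2 residues, and differ in where they go. Fibrillar collagens form fibres, with types II and XI, and type IX on their surface, known from cartilage. Type IV collagen forms the sheet-like network of basement membranes, and laminins, each a trimer of an alpha, a beta and a gamma chain, form a second network there that nidogens and perlecan join to it. Fibronectin is a cell adhesion protein of the interstitial matrix, and SPARC is a secreted protein that binds collagen. Melanocytes sit on the basement membrane of the epidermis.

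The coding sequences show how the collagen chains differ that turn up in different lines below. In the longest GENCODE M21 coding sequence of each gene, the longest run of GGN-NNN-NNN (a glycine codon and any other 2) was 339 triplets in Col2a1, the type II chain, 113 in Col9a1, a type IX chain, and 40 in Col4a1, a type IV chain, in which 22 runs of 4 or more triplets were separated by interruptions. In the laminin chains, nidogens, Hspg2, Fn1 and Sparc it was 3 or fewer. Runs of 4 or more triplets numbered 3 in Col2a1 and 6 in Col9a1, so the repeat of these chains has breaks too. In-frame stretches of 54 bases follow, with the GGN codons in capitals and codons numbered from the start codon. Those of Col2a1 and Col9a1 open the longest run, and that of Col4a1 was placed across the end of its longest run. The stretches cover codons 201 to 218 of Col2a1, 418 to 435 of Col9a1 and 154 to 171 of Col4a1. In the Col4a1 stretch an extra codon before the fourth and another before the fifth glycine codon break the spacing.
Col2a1: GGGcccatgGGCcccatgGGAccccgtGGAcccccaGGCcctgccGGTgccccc
Col9a1: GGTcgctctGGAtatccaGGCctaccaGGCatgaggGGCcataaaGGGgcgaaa
Col4a1: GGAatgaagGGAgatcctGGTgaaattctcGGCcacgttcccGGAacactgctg

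Col4a1 (chr8:11198423-11312826) and Col4a2 (chr8:11312805-11449287), whose chains form the commonest type IV trimer, lie head to head on chromosome 8 (gene coordinates here and below are of GRCm38), with annotated starts 21 bases apart, so that they share a promoter region. Their windows from 250 bases before to 50 bases after the RefSeq start (GRCm38.p6) overlap by 78 bases. The windows are printed because both genes differed widely between the lines and moved in the same direction with SX-682 within each line. The Col4a1 window is chr8:11312777-11313076 on the minus strand and the Col4a2 window chr8:11312555-11312854 on the plus strand. Capitals mark the bases common to both windows, read on opposite strands.
Col4a1: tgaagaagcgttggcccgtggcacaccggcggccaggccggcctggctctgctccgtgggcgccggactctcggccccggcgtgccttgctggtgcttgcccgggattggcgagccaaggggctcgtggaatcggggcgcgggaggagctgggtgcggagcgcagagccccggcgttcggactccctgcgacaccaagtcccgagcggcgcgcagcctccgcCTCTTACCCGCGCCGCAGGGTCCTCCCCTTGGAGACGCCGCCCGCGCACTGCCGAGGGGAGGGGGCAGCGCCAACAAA
Col4a2: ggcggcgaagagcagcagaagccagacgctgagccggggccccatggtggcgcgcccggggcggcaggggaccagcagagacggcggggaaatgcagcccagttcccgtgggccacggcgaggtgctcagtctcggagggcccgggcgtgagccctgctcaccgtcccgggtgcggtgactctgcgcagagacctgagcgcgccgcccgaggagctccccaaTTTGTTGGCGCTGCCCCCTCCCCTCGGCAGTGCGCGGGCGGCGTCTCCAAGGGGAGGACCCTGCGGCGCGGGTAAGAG
On either strand, the GC box GGGCGG occurred 1 time in the Col4a1 window and 3 times in the Col4a2 window, CCAAT 1 time in each, and TATAAA in neither. The GGGCGG of the Col4a1 window lies in the shared bases and is also counted in the Col4a2 window. GGGCGG was in 35.7% of the 32851 windows of the RefSeq table and in 59.6% of the 47 windows of the 43 members found there, CCAAT in 37.4% and 31.9%, and TATAAA in 13.6% and 10.6%. These matches describe letters in the windows, not sites of binding.

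Library totals were between 48876982 and 85322092 counts, and 3 counts in a library, taken here as the floor of detection (counting error only), were 0.033 to 0.0623 CPM. Of 7 melanocyte markers, all 7 were over 1 CPM in B16F0 and B16F10, whereas in Melan-A Tyr (tyrosinase) had group means of 0.826 CPM untreated and 0.281 CPM with SX-682 and Pmel 8.11 CPM untreated, with Sox10 at 670.1 CPM in Melan-A controls against 453 and 586 CPM in B16F0 and B16F10 controls. The 7 melanocyte markers summed to 1344 to 1374 CPM in Melan-A libraries against 14947 to 24470.5 CPM in B16 libraries. Of 7 fibroblast markers, Dcn, Lum, Dpt and Thy1 were at or under the floor in all B16 groups. Dpt and Thy1 were also low in Melan-A controls, at 0.0623 and 0.0628 CPM. The list summed to 127 to 152 CPM in Melan-A cells, 28.7 to 33.1 CPM in B16F0 and 6.18 to 9.60 CPM in B16F10 libraries. Pdgfrb, at 102.52 CPM in Melan-A controls, made up most of the sum there. Pdgfra was higher in B16F0 than in Melan-A controls (8.11 against 3.9997 CPM), and Postn was close (9.725 against 11.64 CPM). In B16F10 controls both were lower, at 1.332 and 4.227 CPM. Of 6 endothelial markers, Vwf was over 1 CPM in every group, from 5.35 CPM in B16F0 controls to 60.4 CPM in treated B16F10, and Pecam1 only in Melan-A. Of 5 leukocyte markers measured, only Cd68 was over 1 CPM, in every group. It averaged 16.02 CPM in Melan-A controls and 44.6 CPM with SX-682. Among 5 epithelial markers, Cdh1 was over 1 CPM in Melan-A and B16F0 and Krt8 only in treated Melan-A. The part of these markers in the differences below was not tested. The libraries are bulk RNA, in which fewer cells of a kind and less RNA per cell cannot be told apart.

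The untreated lines had very different matrix genes. Melan-A libraries were rich in fibronectin and in the cartilage-type chains of types II, IX and XI and low in Col4a1, Col4a2 and Col4a5, whereas B16F0 and still more B16F10 libraries were rich in Col4a1, Col4a2 and Col4a5 and poor in the cartilage-type chains. The members together took 2.48% of all counts in Melan-A controls, 0.516% in B16F0 controls and 0.791% in B16F10 controls, and Fn1 alone took 1.58%, 0.0355% and 0.120%. In edgeR's quasi-likelihood test at an adjusted p under 0.05, 11 of the 53 members tested were higher and 36 lower in B16F0 than in Melan-A (88.7% of the members, against 75.9% of all genes tested), and 11 were higher and 38 lower in B16F10 than in Melan-A (92.5%, against 74.2%). B16F10 and B16F0 differed in 40 members, 20 in each direction (75.5%, against 62% of all genes, 30.8% higher and 31.2% lower). Lower members made up 67.9% and 71.7% in the comparisons of B16F0 and B16F10 with Melan-A, against 40.6% and 40.8% of all genes, and higher members 20.8% in each, against 35.3% and 33.4%. These comparisons share the Melan-A controls. Members with few or no counts in the B16 lines, among them Col5a2, Col6a2, Col11a1, Col25a1, Col28a1 and Lama1, entered the test through Melan-A. Their direction was thus set by the filter, and they are part of these counts and of the medians below. The filter acts on all genes in the same way. Differences of 1 or more on the log2 scale that passed the test were found in 40 members for B16F0 and 43 for B16F10 against Melan-A and 28 between the B16 lines (36.2%, 34.3% and 19.9% of all genes), and in the same order 51, 49 and 44 members had libraries that did not overlap (87.4%, 85.6% and 77% of all genes). With members at the floor in 1 group set to their bound, the median log2 difference over the members was -2.26 for B16F0 and -2.47 for B16F10 against Melan-A, beside medians of -0.06 and -0.10 over all genes tested.

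**Figure D1:**
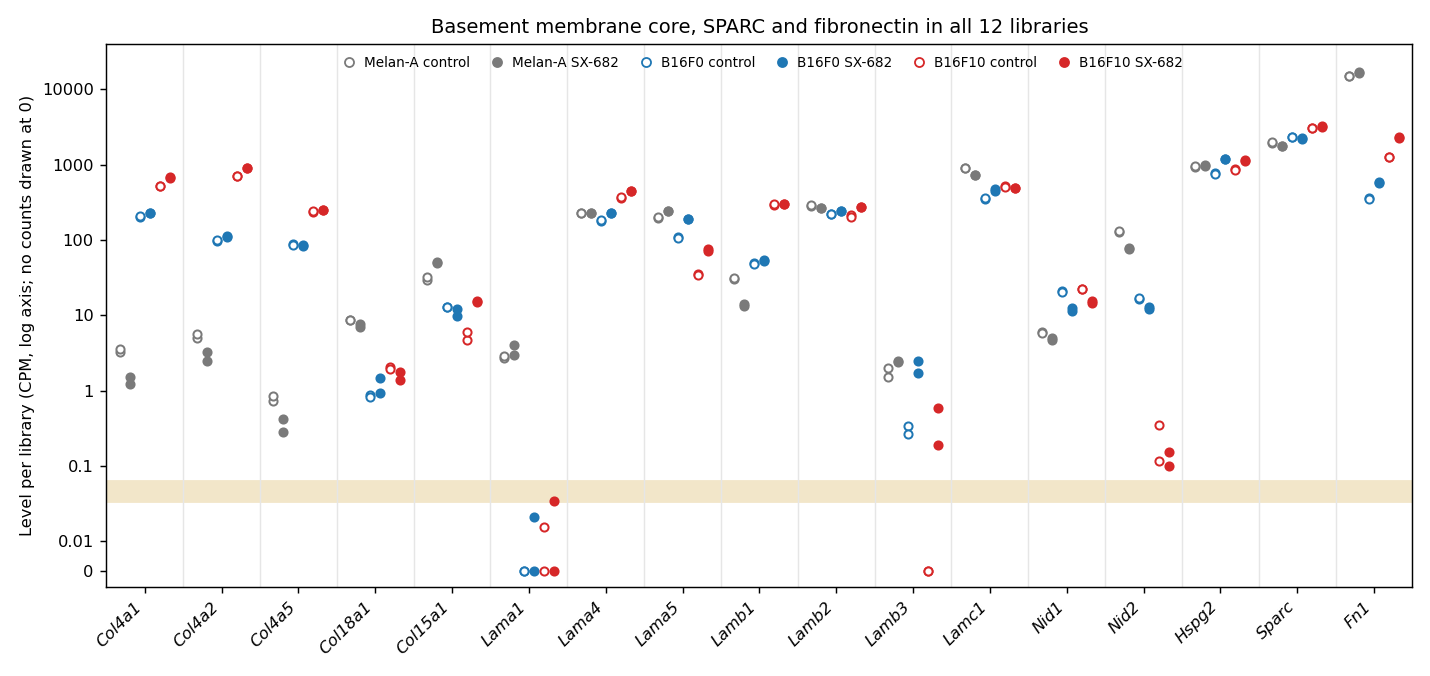
Level of 17 basement membrane, SPARC and fibronectin genes in each of the 12 libraries, in CPM on a log axis, with open circles for untreated and filled circles for SX-682 libraries, grey for Melan-A, blue for B16F0 and red for B16F10. The band spans the CPM that 3 counts give (0.033 to 0.0623), and libraries without counts are drawn at 0. Col4a1, Col4a2 and Col4a5 stand far lower in Melan-A than in the B16 lines, and Fn1 and Nid2 far higher.

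Fibronectin, Fn1 (chr1:71585520-71653200), had 14804 and 14905 CPM in the 2 Melan-A controls, 356 and 355 CPM in the B16F0 controls and 1280 and 1276 CPM in the B16F10 controls. It was the member with the most counts in each Melan-A library, and no library of one line came near those of another. The log2 difference was -5.39 ± 0.02 (SE) for B16F0 against Melan-A and 1.85 ± 0.02 for B16F10 against B16F0. Each SE here and below was derived from the test's F statistic and can be too small where a group has few counts. Sparc (chr11:55394500-55423183), a collagen-binding matricellular protein, held the most counts of all members in every B16 library, with 1911 and 1984 CPM in Melan-A, 2343 and 2307 CPM in B16F0 and 3056 and 3075 CPM in B16F10 controls. Its lines did not overlap, but the differences were small beside those of Fn1, 0.26 ± 0.02 for B16F0 and 0.65 ± 0.02 for B16F10 against Melan-A.

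Of the type IV collagen chains, Col4a1 had 3.21 and 3.54 CPM in Melan-A, 201 and 211 CPM in B16F0 and 523 and 522 CPM in B16F10 controls. Col4a2, its partner in the trimer, had 5.01 and 5.68 CPM, 97 and 99.1 CPM and 708 and 704 CPM in the same order. Col4a5 (chrX:141475385-141689234), a chain of other type IV trimers, had 0.73 and 0.859 CPM, 87.1 and 85 CPM and 235 and 239 CPM. All 3 rose in level from Melan-A to B16F0 to B16F10 with no overlap of libraries. In B16F10 against Melan-A the log2 difference was 7.27 ± 0.04 for Col4a1, 7.04 ± 0.04 for Col4a2 and 8.22 ± 0.06 for Col4a5, with edgeR adjusted p of 2.10e-40, 1.13e-39 and 2.40e-38. In B16F10 against B16F0, Col4a2 differed by 2.85 ± 0.03 and Col4a1 by 1.34 ± 0.03.

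Col4a3 (chr1:82586921-82722059) and Col4a4 (chr1:82448423-82586849), chains of the type IV trimer known from the kidney filter, form another head-to-head pair, with starts 72 bases apart, and did not follow Col4a1 and Col4a2. Col4a3 had 8.43 and 8.15 CPM in Melan-A cells, 0.20 and 0.193 CPM in B16F0 and 3.64 and 3.5 CPM in B16F10 controls, so that B16F0 lay lowest, and Col4a4 had 4.67 and 4.87, 4.63 and 4.24 and 2.02 and 2.85 CPM. Col4a4 differed by -0.10 ± 0.17 (edgeR adjusted p = 0.583) between B16F0 and Melan-A, which did not pass the test. Col4a6, which lies head to head with Col4a5 with starts 1309 bases apart on the X chromosome, had 0.011 to 0.104 CPM in the controls of all lines and was not tested. The 6 type IV genes summed to 22.2 and 23.1 CPM in the Melan-A controls, 390.3 and 399 CPM in the B16F0 controls and 1472 and 1472 CPM in the B16F10 controls.

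The chains of types II, IX and XI went the other way. Col2a1 (chr15:97975602-98004695) had 285 and 295 CPM in the Melan-A controls against 2.43 and 1.73 CPM in B16F0 and 1.17 and 1.08 CPM in B16F10. Col9a1 (chr1:24177610-24252684) had 1116 and 1088 CPM in Melan-A against 2.94 and 3.17 and 1.9 and 1.66 CPM, and Col11a2 868 and 882 CPM against 4.87 and 4.97 and 1.69 and 1.06 CPM. For each of these 3 genes both Melan-A controls lay far above all B16 controls. Col9a2 and Col9a3 had lower levels with the same order, 88.4 and 89.7 and 33.3 and 32.9 CPM in Melan-A and 1.13 to 2.48 CPM in the B16 controls. Col11a1 (chr3:114030540-114220718), a type XI chain, had 151 and 151 CPM in Melan-A, 0.12 and 0.0149 CPM in B16F0 controls and no counts in any of the 4 B16F10 libraries, at least 3129-fold lower in B16F10 than in Melan-A controls when set at the floor. Together the 6 genes summed to 2541 and 2539 CPM in Melan-A cells, 13.2 and 13.5 CPM in B16F0 and 8.32 and 7.01 CPM in B16F10 controls. Col2a1, Col9a2 and Col11a2 and the 6-gene sum were chosen after their values were seen. Other collagens known from cartilage were mixed. Col27a1 averaged 9.66 CPM in Melan-A, 1.90 CPM in B16F0 and 4.48 CPM in B16F10 controls. Col10a1 was not higher in Melan-A, with 2.10, 2.17 and 2.39 CPM in the same order.

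**Figure D2:**
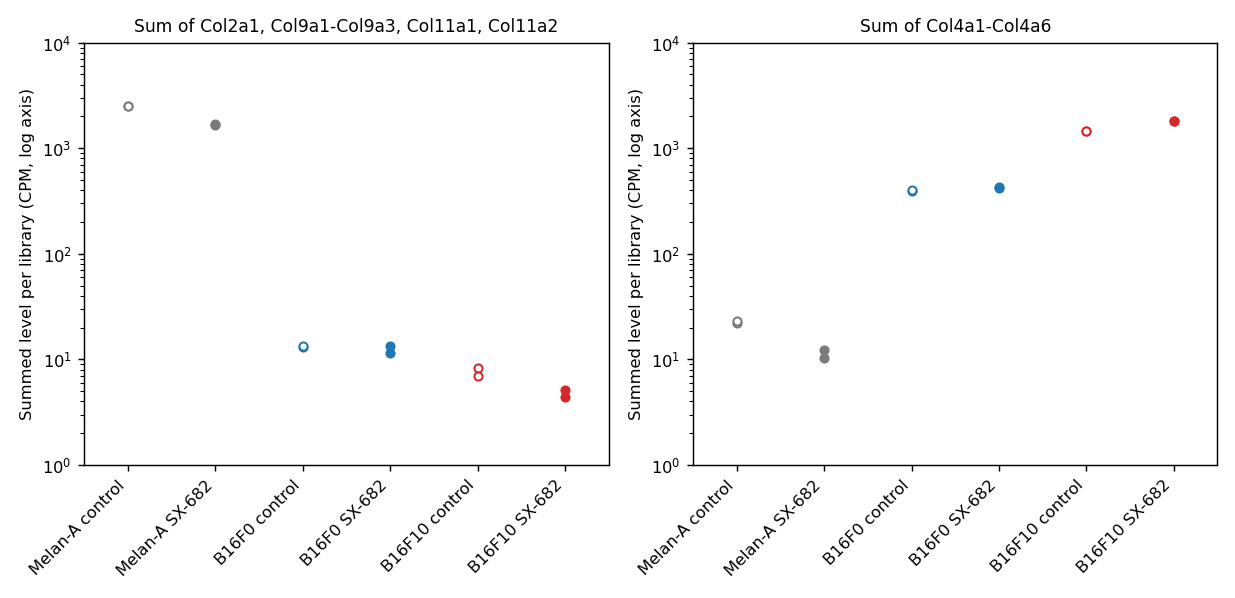
Summed level in each library, in CPM on a log axis, of the 6 chains of types II, IX and XI (left) and of the 6 type IV chains (right), with open circles for untreated and filled circles for SX-682 libraries. The type II, IX and XI sum is 2539 and 2541 CPM in Melan-A controls and under 14 CPM in every B16 library, while the type IV sum is 10.2 to 23.1 CPM in Melan-A and 390.3 to 1831 CPM in the B16 libraries.

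The interstitial chains of types I, III, V and VI showed no single order. Col1a1 had 45.7 and 47.1 CPM in Melan-A cells, 5.86 and 5.73 CPM in B16F0 and 2.68 and 2.5 CPM in B16F10 controls, while Col1a2, the other chain of type I collagen, rose from 0.614 and 0.914 CPM in Melan-A to 4.5 and 5.79 CPM in B16F10. Col3a1 (chr1:45311538-45349706), the type III chain of skin and vessels, had 54.8 and 53 CPM in Melan-A and at most 0.178 CPM in every B16 library, at least 1116-fold lower in B16F10 controls. Col5a1 had 387 and 395 CPM in Melan-A and 143 and 145 and 159 and 161 CPM in B16F0 and B16F10, Col5a2 (chr1:45374321-45503282) had 3.16 and 3.81 CPM in Melan-A and at most 1 count in each B16 control, and Col5a3 was highest in B16F0, with 62.4 and 64.9 CPM against 3.03 and 2.97 CPM in Melan-A. Col6a1 (chr10:76708792-76726168) and Col6a3 (chr1:90765923-90843971), chains of the beaded filaments of type VI, had 197 and 203 and 35.4 and 34.6 CPM in Melan-A. In the B16 controls Col6a1 was at 0.16 and 0.312 CPM in B16F0 and 6.83 and 7.29 CPM in B16F10, and Col6a3 at 0.387 and 0.446 and 0 and 0.0626 CPM. Of these genes, those other than Col3a1, Col5a2, Col6a1 and Col6a3 were named after their values were seen.

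Several non-fibrillar collagens were near or under detection in the B16 lines. Col28a1 (chr6:7997808-8192617) had 41.6 and 42.3 CPM in Melan-A and at most 3 counts in each B16 control, at least 991-fold lower in B16F0, and Col25a1 (chr3:130131501-130599877), a transmembrane collagen of nerve cells, had 9.09 and 9.98 CPM in Melan-A and at most 3 counts in each B16 control, at least 225-fold lower in B16F0. Col8a1 (chr16:57624258-57754737), a short-chain collagen known from vessels and the eye, had 65.1 and 66.6 CPM in Melan-A cells, 0 and 0.104 CPM in B16F0 and 3.82 and 4.79 CPM in B16F10, a log2 difference of 6.40 ± 0.30 between the B16 lines that rests on the 7 counts of B16F0 control replicate 2. Without that library the B16F0 level is 0 and the fitted value, 11.22, depends on the prior count. Col14a1 (chr15:55307750-55520803), which binds fibril surfaces, had 12.8 and 11.9 CPM in Melan-A and 0.402 to 0.645 CPM in the B16 controls. Col15a1 (chr4:47208161-47313167) and Col18a1 (chr10:77052178-77166548), the basement membrane zone collagens whose ends can be cut off as restin and endostatin, were likewise highest in Melan-A, at 29.8 and 31.8 CPM and 8.63 and 8.61 CPM, against 12.9 and 12.8 CPM and 0.881 and 0.833 CPM in B16F0 and 4.66 and 5.91 CPM and 2.05 and 1.92 CPM in B16F10. Col7a1 (chr9:108953586-108984875), the chain of anchoring fibrils, had 4.22 to 6.01 CPM in the controls of all lines, and the libraries of the lines overlapped.

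Among the laminin chains, the same few were abundant in each line. Levels were taken per kilobase of exon (CPM per kb), a scale for comparing genes that depends on the length used. Lamc1, the gamma chain of most laminins, stood highest in each control group. Its level was 109 ± 1.57 in Melan-A cells, 43.1 ± 0.771 in B16F0 and 61.9 ± 0.141 in B16F10 (mean ± SD, n = 2). Lamb2, a beta chain, followed at 47.4 ± 0.576, 36.1 ± 0.368 and 34.2 ± 0.805. The line-specific part lay in the other chains. Lamb1, the alternative beta chain, was 3.13 ± 0.0492 in Melan-A cells, 4.87 ± 0.11 in B16F0 and 29.7 ± 0.277 in B16F10 on this scale. Lama5 took the opposite order, 17.6 ± 0.27, 9.44 ± 0.356 and 3.08 ± 0.0956, while Lama4, the alpha chain of vascular laminins, was 18.8 ± 0.21, 15 ± 0.289 and 30.4 ± 0.292. Thus in Melan-A controls the Lama4 and Lama5 levels were close per exon length, and in the B16 controls Lama4 was the higher. The closeness depends on the length, as the exons cover 12068 and 11388 bases but the longest coding sequences hold 1816 and 3718 codons. The second place of Lamb2 in B16F10 depends on it too. Lama4, Lamb1 and Lamb2 averaged 367, 295 and 208 CPM in B16F10 controls, with coding sequences of 1816, 1834 and 1799 codons. In CPM, Lamb1 (chr12:31265234-31329644) rose from 30.7 and 31.4 in Melan-A to 293 and 297 in B16F10, a log2 difference of 3.25 ± 0.03 (edgeR adjusted p = 1.10e-34), and Lama5 (chr2:180176373-180225859) fell from 198 and 202 to 35.8 and 34.3, a difference of -2.51 ± 0.04 (edgeR adjusted p = 5.31e-31).

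Lama3 and Lamb3, laminin chains known from epithelia, were low. Lamb3 (chr1:193207699-193343878) had 2.02 and 1.52 CPM in Melan-A controls, 0.334 and 0.268 CPM in B16F0 controls and no counts in B16F10 controls, and Lama3 had 0.127 to 0.681 CPM in all controls. Lama1 (chr17:67697259-67822647), the alpha chain of early embryos, had 2.7 and 2.85 CPM in Melan-A and at most 1 count in each B16 control, at least 65.5-fold lower in B16F0. Lama2 and Lamc3 had at most 0.637 CPM in each library.

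**Figure D3:**
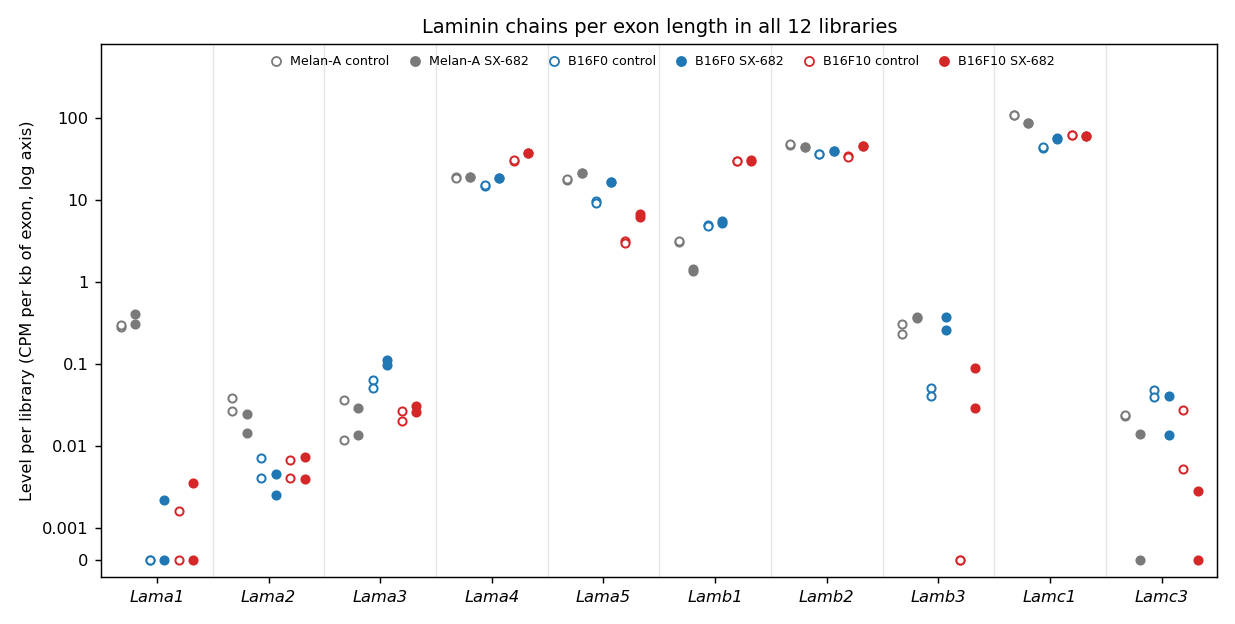
Level of 10 laminin chains in each library, in CPM per kilobase of exon on a log axis, with open circles for untreated and filled circles for SX-682 libraries, grey for Melan-A, blue for B16F0 and red for B16F10, and libraries without counts at 0. Lamc1, Lamb2 and Lama4 lie above 10 in all libraries, Lamb1 rises from Melan-A to B16F10, and Lama5 is highest in Melan-A.

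The 2 nidogens, which bridge the laminin and type IV networks, differed between Melan-A and the B16 lines in opposite directions. Nid1 (chr13:13437551-13512269) had 6.02 and 5.88 CPM in Melan-A cells, 20.9 and 20.2 CPM in B16F0 and 22.2 and 22.7 CPM in B16F10 controls, and Nid2 (chr14:19751265-19811787) had 128 and 132 CPM, 16.5 and 17.2 CPM and 0.116 and 0.344 CPM. Nid1 was higher in both B16 lines than in Melan-A, by 1.79 ± 0.08 and 1.91 ± 0.08. Nid2 was lower, by a log2 difference of -2.95 ± 0.05 in B16F0 and -9.11 ± 0.10 in B16F10. The B16F10 value of Nid2 rests on 7 and 22 counts in the B16F10 controls, so that its SE is too small. Of the exon bases of Nid2, 8.45% lie over Rtraf on the other strand, and whether the counting used strand is not given in the sources used here. Hspg2 (chr4:137468769-137570630), the heparan sulfate proteoglycan perlecan, differed less, with 921 and 970.5 CPM in Melan-A, 772 and 756 CPM in B16F0 and 885 and 859.6 CPM in B16F10 controls, log2 differences of -0.31 ± 0.02 and -0.12 ± 0.02 from Melan-A. The latter was -0.07 without Melan-A control replicate 2 and -0.18 over genes with at least 10 counts in every library.

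Many of these genes differed between SX-682 and control libraries of each line, downwards in most cases in Melan-A and in both directions in the B16 lines. In Melan-A, 7 of the 53 members rose and 30 fell in edgeR's quasi-likelihood test (13.2% and 56.6% of members, against 23.4% and 24.7% of all genes tested and 48.2% in either direction). In B16F0, 16 rose and 10 fell (30.2% and 18.9%, against 25.1% and 25%, and 50.1% in either direction), and in B16F10, 17 rose and 13 fell (32.1% and 24.5%, against 25.5% and 25.3%, and 50.8% in either direction). The median log2 fold change over the members was -0.30 in Melan-A, and with members at the floor in 1 group set to their bound and those at the floor in both left out, 0.13 in B16F0 and 0.05 in B16F10 (48 members each), beside 0 over all genes in each line. Most changes were small. In all, 8 members in Melan-A cells, 3 in B16F0 and 11 in B16F10 passed the test and moved by 1 or more on the log2 scale, where 5.5%, 7.83% and 8.18% of all genes did. Treated and untreated libraries did not overlap in 49 members in Melan-A cells, 33 in B16F0 and 36 in B16F10, where 72.7%, 70.4% and 69.4% of all genes did not.

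Fibronectin and Lama5 rose in all 3 lines, 3.77% of the members against 11.3% of all genes. Fn1 went from 14804 and 14905 CPM to 16602 and 16832 CPM in Melan-A, from 356 and 355 to 582 and 578 in B16F0, and from 1280 and 1276 to 2234 and 2296 in B16F10. Treated and untreated libraries did not overlap in any line, and Fn1 rose by 0.17 ± 0.01 on the log2 scale in Melan-A cells, 0.71 ± 0.02 in B16F0 and 0.83 ± 0.01 in B16F10, with edgeR adjusted p of 3.78e-11, 3.51e-25 and 2.92e-27. Its share of all counts went from 1.58% to 1.80% in Melan-A and from 0.120% to 0.214% in B16F10. Lama5, a laminin alpha chain of mature basement membranes, went from 198 and 202 to 244 and 242 CPM in Melan-A, from 110.3 and 105 to 191 and 189.7 CPM in B16F0, and from 35.8 and 34.3 to 70.8 and 75.5 CPM in B16F10. It rose by 0.28 ± 0.03, 0.82 ± 0.03 and 1.06 ± 0.04. The rises of both genes were larger in the B16 lines than in Melan-A, by 0.60 ± 0.02 (edgeR adjusted p = 5.41e-21) for Fn1 and 0.66 ± 0.04 (edgeR adjusted p = 3.27e-14) for Lama5, and larger in B16F10 than in B16F0, by 0.12 ± 0.02 and 0.24 ± 0.05.

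The laminin chains described here fell or did not pass the test in Melan-A, Lama5 apart, and none of them passed as a fall in the B16 lines. In Melan-A 1 of the 10 rose and 3 fell (23.4% and 24.7% of all genes, so that the falls were near the background), in B16F0 6 rose (25.1% of all genes), and in B16F10 4 rose (25.5%). Lamb1 went from 30.7 and 31.4 to 13.4 and 14.1 CPM in Melan-A, where it fell by 1.18 ± 0.04 (edgeR adjusted p = 8.04e-20), while it was 49.1 and 47.5 against 54.2 and 52.4 CPM in B16F0, a rise of 0.14 ± 0.03, and 293 and 297 against 299.7 and 303 CPM in B16F10, where it did not pass the test. Lamc1 (chr1:153218922-153332786) had 889 and 908 CPM in Melan-A controls and 720.4 and 719 CPM with SX-682. In B16F0 it had 352 and 361 and then 453 and 471 CPM, and in B16F10 513 and 511 and then 492 and 496 CPM. Lamc1 fell by 0.32 ± 0.02 in Melan-A and rose by 0.37 ± 0.02 in B16F0, with no overlap of libraries, and was -0.05 ± 0.02 (edgeR adjusted p = 0.0579) in B16F10. It passed as a fall under 12 of the alternatives, among them DESeq2's size factors (-0.06, edgeR adjusted p = 0.038) and the compared libraries alone (-0.05, edgeR adjusted p = 0.00693).

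Lamb2 (chr9:108479736-108490530) went from 286 and 291 to 269 and 268 CPM in Melan-A, from 221 and 218 to 239.9 and 240.4 CPM in B16F0 and from 211 and 204 to 273 and 274 CPM in B16F10. It fell by 0.10 ± 0.02 in Melan-A and rose by 0.13 ± 0.02 in B16F0 and 0.40 ± 0.02 in B16F10. Lama4 (chr10:38965515-39110188) did not pass the test in Melan-A, with 229 and 225 CPM against 230.3 and 228 CPM, and went from 179 and 184 to 225 and 226 CPM in B16F0 and from 365 and 369.7 to 448 and 446 CPM in B16F10, rises of 0.32 ± 0.02 and 0.28 ± 0.02. Lamb3 rose in B16F0 from a low level. It went from 0.334 and 0.268 to 2.47 and 1.72 CPM, which was 6.97-fold (2.80 ± 0.35, edgeR adjusted p = 1.01e-07 on the log2 scale), and in B16F10 from no counts to 0.594 and 0.188 CPM, at least 8.1-fold higher. In Melan-A, Lamb3 had 2.02 and 1.52 CPM and then 2.48 and 2.42 CPM and did not pass the test. Lama1, Lama2, Lama3 and Lamc3 passed the test in no line, and Lama1 had 3.97 and 2.97 CPM in Melan-A with SX-682.

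**Figure D4:**
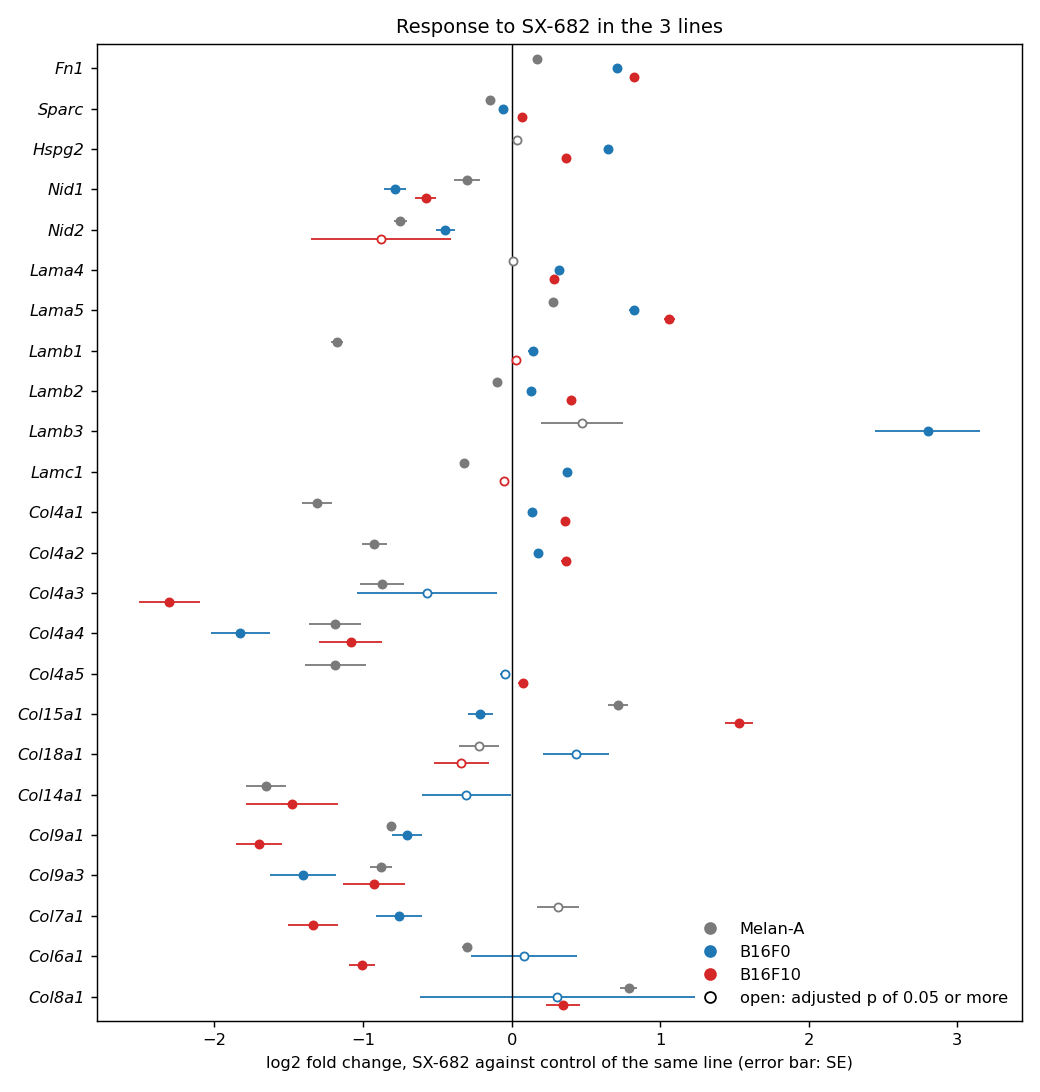
log2 fold change between SX-682 and control libraries of the same line for 24 members, with the standard error as a horizontal bar, in grey for Melan-A, blue for B16F0 and red for B16F10. Filled circles passed edgeR's quasi-likelihood test and open circles did not, and values with a group at the floor of 3 counts are left out. Fn1 and Lama5 lie right of 0 in all 3 lines, Nid1, Col4a4, Col9a1 and Col9a3 left of 0, and Col4a1, Col4a2 and Lamb2 left in Melan-A and right in both B16 lines.

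The type IV chains divided by line and by gene pair. In Melan-A all 5 tested fell, against 24.7% of all genes. In B16F0 2 rose and 1 fell (25.1% and 25% of all genes), and in B16F10 3 rose and 2 fell (25.5% and 25.3%). Col4a1 went from 3.21 and 3.54 to 1.5 and 1.23 CPM in Melan-A, from 201 and 211 to 226 and 227 CPM in B16F0, and from 523 and 522 to 666 and 675 CPM in B16F10. Col4a2 went from 5.01 and 5.68 to 3.21 and 2.45 CPM, from 97 and 99.1 to 109.6 and 113 CPM and from 708 and 704 to 915 and 901 CPM. Neither gene's treated and untreated libraries overlapped in any line. Col4a1 fell by 1.31 ± 0.10 (edgeR adjusted p = 3.91e-12) in Melan-A and rose by 0.14 ± 0.03 in B16F0 and 0.36 ± 0.03 (edgeR adjusted p = 7.27e-13) in B16F10, and Col4a2 fell by 0.92 ± 0.09, and rose by 0.18 ± 0.03 and 0.36 ± 0.03 in the same order. In the B16 lines the fold changes of this pair were close to each other, and in Melan-A they lay further apart. The part of the shared promoter region printed above in these changes was not tested.

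Col4a4 fell in all 3 lines. It went from 4.67 and 4.87 to 2.22 and 1.97 CPM in Melan-A cells, from 4.63 and 4.24 to 1.18 and 1.33 CPM in B16F0 and from 2.02 and 2.85 to 1.35 and 0.94 CPM in B16F10, and fell by 1.19 ± 0.18, 1.83 ± 0.20 and 1.08 ± 0.21. Col4a3, its head-to-head neighbour, fell by 0.87 ± 0.15 in Melan-A and 2.30 ± 0.20 (edgeR adjusted p = 5.08e-11) in B16F10, where it went from 3.64 and 3.5 to 0.759 and 0.684 CPM, while in B16F0 its controls and treated libraries overlapped. Of the exon bases of Col4a3, 5.65% lie over the transcript C430014B12Rik on the other strand. Col4a5 went from 0.73 and 0.859 to 0.281 and 0.413 CPM in Melan-A (-1.19 ± 0.21, edgeR adjusted p = 1.57e-05), had 87.1 and 85 against 82.5 and 84.8 CPM in B16F0, and 235 and 239 against 248 and 252 CPM in B16F10 (0.08 ± 0.03). The last call was lost without any 1 of the 4 B16F10 libraries, with adjusted p of 0.0942 to 0.196, without either B16F0 control, or with DESeq2's size factors.

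Nid1 fell in all 3 lines with Col4a4, Col9a1 and Col9a3, 4 members in all (7.55%, against 11.7% of all genes). It went from 6.02 and 5.88 to 4.95 and 4.72 CPM in Melan-A, from 20.9 and 20.2 to 12.3 and 11.4 CPM in B16F0, and from 22.2 and 22.7 to 15.6 and 14.4 CPM in B16F10. It fell by 0.30 ± 0.09, 0.79 ± 0.07 and 0.58 ± 0.07, and in Melan-A did not pass without treated replicate 2 (-0.26, edgeR adjusted p = 0.0781). Nid2 went from 128 and 132 to 76.4 and 78.5 CPM in Melan-A (-0.75 ± 0.04) and from 16.5 and 17.2 to 12.1 and 12.7 CPM in B16F0 (-0.45 ± 0.07), and had 0.0989 and 0.154 CPM in treated B16F10. Hspg2 had 962 and 977 CPM in treated Melan-A, overlapping its controls, and went from 772 and 756 to 1197 and 1197 CPM in B16F0 (0.65 ± 0.02) and from 885 and 859.6 to 1113 and 1138 CPM in B16F10 (0.37 ± 0.02). Its rises thus stood beside falls of Nid1 in both B16 lines.

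Sparc moved little and not in 1 direction. It went from 1911 and 1984 to 1760 and 1763 CPM in Melan-A, from 2343 and 2307 to 2252 and 2218 CPM in B16F0 and from 3056 and 3075 to 3195 and 3251 CPM in B16F10, changes of -0.14 ± 0.02, -0.06 ± 0.02 and 0.07 ± 0.02. The call in B16F0 was lost with DESeq2's size factors (-0.04, adjusted p = 0.0593), and without control replicate 1 or treated replicate 2. Sparc, Col10a1 and Col15a1 passed the test in both B16 lines in opposite directions (5.66% of members, against 3.31% of all genes).

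The cartilage-type chains fell in Melan-A, where they were abundant. Their sum went from 2541 and 2539 to 1687 and 1676 CPM, and each of the 6 fell, by 0.30 to 0.88 on the log2 scale. Col9a1 went from 1116 and 1088 to 631 and 627 CPM in Melan-A cells, from 2.94 and 3.17 to 1.97 and 1.72 CPM in B16F0 and from 1.9 and 1.66 to 0.528 and 0.564 CPM in B16F10. It fell by 0.81 ± 0.02 (edgeR adjusted p = 1.42e-21), 0.71 ± 0.10 and 1.70 ± 0.16 in that order. Col9a3 (chr2:180597790-180622189) went from 33.3 and 32.9 to 17 and 19 CPM, from 1.21 and 1.16 to 0.379 and 0.54 CPM and from 1.27 and 1.13 to 0.594 and 0.667 CPM, and fell by 0.88 ± 0.08, 1.40 ± 0.22 and 0.93 ± 0.21. Of its exon bases, 6.07% lie over Tcfl5 on the other strand. In Melan-A, Col2a1 fell by 0.67 ± 0.04 and Col11a1 fell by 0.74 ± 0.04, and Col11a2 fell by 0.30 ± 0.03 there but rose by 0.41 ± 0.08 in B16F0, from 4.87 and 4.97 to 6.91 and 6.09 CPM.

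Of the 10 fibrillar chains tested, none rose and 8 fell in Melan-A, against 23.4% and 24.7% of all genes. In B16F0 3 rose and 1 fell (25.1% and 25% of all genes) and in B16F10 3 rose and 2 fell (25.5% and 25.3%), and these counts other than the single fall were near the background. Those that rose in B16F0 were Col1a1, Col5a3 and Col11a2, and the one that fell was Col5a1, by 0.34 ± 0.03, and in B16F10 Col1a1, Col3a1 and Col5a3 rose and Col1a2 and Col27a1 fell, the fall of Col1a2 not passing without control replicate 2 (-0.42, edgeR adjusted p = 0.22) or without either treated library. Col1a1 did not pass the test in Melan-A cells, at 46.2 and 45.8 CPM, and rose by 0.52 ± 0.08 in B16F0 and 0.53 ± 0.11 in B16F10. The B16F10 rise of Col3a1 was from 0 or 1 count to 4 and 8 counts and was not called without control replicate 2 or treated replicate 2. Col5a3 fell in Melan-A, from 3.03 and 2.97 to 1.89 and 1.69 CPM, and rose from 62.4 and 64.9 to 73 and 74.2 CPM in B16F0 and from 16.9 and 15.3 to 19.7 and 22.1 CPM in B16F10.

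Among the other collagens, Col15a1 had opposite changes in the 2 B16 lines. It went from 29.8 and 31.8 to 51.2 and 50.05 CPM in Melan-A, from 12.9 and 12.8 to 12.2 and 9.85 CPM in B16F0, and from 4.66 and 5.91 to 15 and 15.7 CPM in B16F10. It rose by 0.72 ± 0.07 in Melan-A and 1.53 ± 0.10 (edgeR adjusted p = 2.21e-14) in B16F10, where treated libraries were far above the controls, and fell by 0.21 ± 0.09 (edgeR adjusted p = 0.0436) in B16F0, a call lost without either control library (adjusted p = 0.131 and 0.0962) or treated replicate 2 (-0.07). Col18a1, its relative, passed the test in no line, with 7.04 and 7.75 CPM in treated Melan-A, 0.926 and 1.45 CPM in treated B16F0 and 1.39 and 1.76 CPM in treated B16F10. Col7a1 went from 6.01 and 4.83 to 3.42 and 2.97 CPM in B16F0 and from 4.22 and 5.77 to 2.16 and 1.8 CPM in B16F10, falling by 0.76 ± 0.16 and 1.34 ± 0.17, with 5.43 and 4.77 against 6.0 and 6.65 CPM in Melan-A (0.31 ± 0.14, edgeR adjusted p = 0.0723).

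Col14a1 went from 12.8 and 11.9 to 3.96 and 3.88 CPM in Melan-A, where it fell by 1.66 ± 0.13 (edgeR adjusted p = 1.10e-11), and from 0.645 and 0.626 to 0.181 and 0.274 CPM in B16F10 (-1.48 ± 0.31). Col6a1 went from 197 and 203 to 162 and 162 CPM in Melan-A (-0.30 ± 0.03) and from 6.83 and 7.29 to 3.45 and 3.59 CPM in B16F10 (-1.01 ± 0.09). Col6a3 and Col8a1 rose in Melan-A, to 50.8 and 52.8 CPM and 114 and 114 CPM, by 0.57 ± 0.06 and 0.79 ± 0.06, and Col28a1 fell by 0.70 ± 0.07 there, to 26.3 and 25.3 CPM. In B16F10 Col8a1 rose by 0.35 ± 0.12, which was lost without control replicate 1 or treated replicate 1, when it was 0.20. Col16a1, a fibril-associated chain, was the only member to rise in Melan-A (0.10 ± 0.03) and fall in both B16 lines (-0.24 ± 0.03 and -0.23 ± 0.03). Its call in Melan-A was lost without control replicate 2 (0.08, edgeR adjusted p = 0.0579). Col16a1 was named after its values were seen, as was Col10a1, a cartilage collagen at 0.973 to 3.86 CPM, which fell by 0.80 ± 0.24 in Melan-A and 0.86 ± 0.24 in B16F10 and rose by 0.74 ± 0.22 in B16F0. Each of these calls on Col10a1 was lost when control replicate 1 of that line was left out, with adjusted p of 0.115, 0.0745 and 0.1002 in the same order, and in Melan-A and B16F10 also without treated replicate 1.

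Other members were mostly low, and are named to account for the whole group, after their values were seen. Col12a1, a fibril-associated chain, had 0.346 to 6.23 CPM over the 12 libraries. It was higher in both untreated B16 lines than in Melan-A, by 2.79 ± 0.18 and 3.16 ± 0.18 on the log2 scale. With SX-682 it rose by 0.62 ± 0.15 (edgeR adjusted p = 6.22e-04) in B16F0, and was at -0.60 ± 0.26 (edgeR adjusted p = 0.0564) in Melan-A, short of the threshold. Col20a1, also of the fibril-associated class, had 3.24 to 12.2 CPM over the 12 libraries and rose by 0.59 ± 0.12 (edgeR adjusted p = 1.31e-04) in B16F10, where its change lay above that in B16F0 by 0.68 ± 0.18 (edgeR adjusted p = 0.00346). Col27a1, a fibrillar chain known from cartilage, had 1.31 to 10.7 CPM over the 12 libraries, with the highest levels in untreated Melan-A, where it fell by 0.81 ± 0.13 (edgeR adjusted p = 3.06e-06). Col17a1, the transmembrane collagen of hemidesmosomes, had 5.62 and 5.22 CPM in untreated Melan-A and at most 0.467 CPM in any B16 library. It fell by 0.89 ± 0.20 (edgeR adjusted p = 5.37e-04) in Melan-A, and the B16 response did not pass the test of a difference from it (0.61 ± 0.38, edgeR adjusted p = 0.238). Col19a1 had 28 and 19 counts in Melan-A controls and 2 and 4 with SX-682, -2.65 ± 0.80 (edgeR adjusted p = 0.0068), a call lost without control replicate 1 or either treated library. Col8a2, a type VIII chain like Col8a1, had 0 counts in both B16F10 controls and 7 and 1 with SX-682, at least 1.37-fold higher by the floor and with an edgeR adjusted p of 0.0183 that was lost without either control or treated replicate 1. Col22a1 had 0 to 0.337 CPM over the 12 libraries, with no count in any B16F0 library.

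Whether the response differed between lines was tested directly. The mean log2 fold change of the B16 lines was above that of Melan-A in 22 members and below it in 5 (41.5% and 9.43% of members, against 18.7% and 17.1% of all genes and 35.8% in either direction). The median difference over the members was 0.48, beside 0.02 over all genes, with fitted values of members at the floor included and not set to a bound. The counts, and those for B16F10 against B16F0 below, also include members at the floor in some group. Among named members over the floor in every group, 24 and 21 passed in either direction. Among members with all groups over the floor, large differences were those of Col4a1, 1.56 ± 0.10 (edgeR adjusted p = 2.83e-13), and Lamb1, 1.26 ± 0.05 (edgeR adjusted p = 7.33e-19), with Col4a5 and Col4a2 at 1.20 ± 0.21 and 1.19 ± 0.09, and on the other side Col7a1 at -1.36 ± 0.18 (edgeR adjusted p = 5.53e-07). Col23a1, a transmembrane collagen named after its values were seen, differed by -1.72 ± 0.62 (edgeR adjusted p = 0.0306), on levels of 0.0881 to 1.38 CPM, and this call was lost when any of 5 libraries was left out, 1 of them treated Melan-A replicate 1 (-1.19, edgeR adjusted p = 0.246). Members that passed the test in all 3 lines with Melan-A opposite to both B16 lines were Col4a1, Col4a2, Col5a3, Lamb2 and Col16a1 (9.43%, against 2.66% of all genes). B16F10 and B16F0 differed in their response in 23 members, 12 above and 11 below (22.6% and 20.8%, against 15.3% and 14.9%, and 30.3% in either direction), led among members over the floor by Col15a1, 1.74 ± 0.13 (edgeR adjusted p = 1.00e-11), and Col4a3, -1.73 ± 0.55 (edgeR adjusted p = 0.0167), which was -0.95 and not called without treated B16F0 replicate 2. In all, 8 members passed the test in no line (Col18a1, Col22a1, Col25a1, Col5a2, Lama1, Lama2, Lama3 and Lamc3), 15.1% against 29.4% of all genes.

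Chains that assemble together were not at equal levels. Per length, the ratio of Col4a2 to Col4a1 was 1.78 ± 0.0313 in Melan-A controls, 0.537 ± 0.00968 in B16F0 controls and 1.52 ± 0.00534 in B16F10 controls (mean ± SD, n = 2), and 0.554 ± 0.00881 and 1.53 ± 0.0306 with SX-682 in the B16 lines. In Melan-A it was 2.33 ± 0.112 with SX-682, on counts of 92 and more, a shift larger than the gap between the Melan-A and B16F10 controls. The trimer of these chains holds the Col4a1 chain in excess. Lamb1 and Lamb2 are alternative beta chains beside Lamc1, so neither of their ratios alone gives the balance of beta to gamma chains. Lamb1 to Lamc1 was 0.0288 ± 0.000038 in Melan-A cells, 0.113 ± 0.00457 in B16F0 and 0.48 ± 0.00557 in B16F10 controls, and 0.0159 ± 0.000614 in treated Melan-A. Lamb2 to Lamc1 was 0.436 ± 0.000984, 0.837 ± 0.0235 and 0.552 ± 0.0118 in the controls. With SX-682 it went to 0.508 ± 0.0000122 in Melan-A cells, 0.707 ± 0.0187 in B16F0 and 0.754 ± 0.00288 in B16F10, up in Melan-A and B16F10 and down in B16F0 by more than the SD.

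Type I collagen is a trimer with more Col1a1 than Col1a2 chains. Per length, Col1a2 to Col1a1 was 0.00867 ± 0.00223 in Melan-A cells, 0.215 ± 0.00269 in B16F0 and 1.05 ± 0.237 in B16F10 controls, and 0.00307 ± 0.00109, 0.14 ± 0.0607 and 0.479 ± 0.0376 with SX-682. Type VI collagen showed a like imbalance in Melan-A, with Col6a2 at 0.0583 ± 0.000981 of Col6a1 in controls and 0.0479 ± 0.00083 with SX-682, and Col6a2 had at most 10 counts in each B16 library. These levels rest on exon lengths, and the values with coding lengths, which move most for Col1a2, are given with the limits below.

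Genes that make, process or bind these proteins changed in both directions. The counts below stand beside 23.4% of all genes that rose and 24.7% that fell in Melan-A, 25.1% and 25% in B16F0, and 25.5% and 25.3% in B16F10. Of 25 tested genes of collagen synthesis, 12 rose and 7 fell in Melan-A, 11 rose and 7 fell in B16F0, and 8 rose and 9 fell in B16F10. P4ha2, a subunit of the prolyl hydroxylase that stabilises the collagen helix, rose in all 3 lines, by 0.98 ± 0.03 in Melan-A cells, 0.44 ± 0.04 in B16F0 and 0.57 ± 0.04 in B16F10, while Fkbp14 fell in all 3, by 0.10 ± 0.04, 0.62 ± 0.05 and 0.70 ± 0.04 in the same order. Of 13 tested genes of collagen processing and cross-linking, 1 rose and 4 fell in Melan-A, 6 rose and 2 fell in B16F0, and 4 rose and 2 fell in B16F10. Pxdn, a peroxidase that forms the sulfilimine cross-links of type IV collagen, fell by 0.72 ± 0.03 in Melan-A, from 318 to 193 CPM, and in the B16 lines, where Col4a1 and Col4a2 were far higher, its group means were 0 CPM in B16F0 and 0.0165 and 0.126 CPM in untreated and treated B16F10.

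Other basement membrane genes, 17 tested, gave 3 rises and 5 falls in Melan-A cells, 3 and 6 in B16F0 and 2 and 5 in B16F10. Hmcn1, the hemicentin gene, rose in B16F0 and B16F10, by 0.56 ± 0.05 and 0.37 ± 0.05, and Tinagl1 fell in both, by 1.28 ± 0.04 and 0.91 ± 0.03. Of 25 tested genes of the matricellular and interstitial matrix, 4 rose and 17 fell in Melan-A, led by the small proteoglycans Lum, also 1 of the fibroblast markers, and Fmod, which fell by 2.41 ± 0.24 and 2.28 ± 0.17, and 6 rose and 6 fell in B16F0, near the background, and 5 rose and 9 fell in B16F10. Ccn1, a secreted ligand of integrins, rose by 2.74 ± 0.02 in B16F0, from 138 to 923 CPM, and by 0.84 ± 0.02 in B16F10, and fell by 0.13 ± 0.02 in Melan-A, from 449.97 to 410.4 CPM. Of 19 receptors, 7 rose and 10 fell in Melan-A, 8 rose and 3 fell in B16F0, and 5 rose and 8 fell in B16F10. Ddr2, a collagen receptor kinase, rose by 0.13 ± 0.03, 0.67 ± 0.02 and 0.74 ± 0.02 in Melan-A, B16F0 and B16F10, the laminin-binding integrin gene Itga7 rose in all 3 lines, by 0.73 ± 0.24 in Melan-A cells, 1.13 ± 0.25 in B16F0 and 1.39 ± 0.31 in B16F10, and Itga6, which pairs with beta chains to bind laminin, fell by 0.31 ± 0.02, 0.21 ± 0.02 and 0.51 ± 0.02 in the same order. Lists were described by counts and not tested as sets.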

How the data were processed

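RNA-seq was done on 12 samples and the authors deposited whole-number counts per gene with gene names, biotypes and lengths. The submitters' processing notes name cutadapt, STAR, DESeq2 and mm10, and the strand setting of the counting is not given in the sources used here. All 12 count columns matched a sample's title and 0 others were present.

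The deposited counts were filtered by expression, scaled by TMM and fitted over all 6 groups with edgeR 4.0.16 (R 4.3.3), quasi-likelihood test, prior count 0.125, Benjamini-Hochberg adjustment over 18338 genes and a threshold of 0.05. The fit had 6 residual degrees of freedom and a biological coefficient of variation of 2.78%. Each SE is the absolute log2 value divided by the square root of its F statistic. It is not a direct estimate, and can be too small where a group has few counts. With 2 libraries a group, an exact permutation test of 1 gene could not go below 0.333. Totals of 48876982 to 85322092 counts put 3 counts at 0.033 to 0.0623 CPM, which covers counting error only. Replicates differed by more than counting noise (chi-square per gene 2.87 to 5.25).

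Members and lists were chosen with earlier results of these data known. Counts over the members include 1 member whose values are not reported here. Values are given for a fixed basement membrane core, the 4 members with the largest called change by SX-682 in each line and in each untreated contrast (group mean of at least 1 CPM), and others marked as named after their values were seen. Alternatives were DESeq2 size factors, the DESeq2 1.42.0 Wald test, other filters, a prior count of 2, fits on the compared libraries, a replicate block and each library left out. Gene structures were from GENCODE M21 and promoter windows from RefSeq.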

Additional observations from a re-analysis of the deposited data

Results flagged for a closer look

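The results listed here are those in which the log2 change with SX-682 differed between lines in edgeR's test of the difference itself, at an adjusted p under 0.05, among the members that the text names and that were over the floor in every group. The mean change of B16F0 and B16F10 lay above that of Melan-A in 19 of them. The log2 difference was 1.56 for Col4a1, 1.26 for Lamb1, 1.20 for Col4a5, 1.19 for Col4a2, 1.17 for Col1a2, 1.04 for Col5a3, 0.93 for Col12a1, 0.76 for Col14a1, 0.74 for Col10a1, 0.66 for Lama5, 0.60 for Fn1, 0.58 for Col2a1, 0.54 for Col1a1, 0.48 for Lamc1, 0.47 for Hspg2, 0.45 for Col11a2, 0.36 for Lamb2, 0.29 for Lama4 and 0.15 for Sparc. It lay below that of Melan-A in 5, with log2 differences of -0.34 for Col16a1, -0.38 for Nid1, -0.39 for Col9a1, -1.36 for Col7a1 and -1.72 for Col23a1. Standard errors were 0.02 to 0.62 and adjusted p 5.41e-21 to 0.0466. Over all genes tested, 18.7% passed above and 17.1% below. Some members were named after their values were seen, so the counts here and below are not shares of the members.

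The change in B16F10 lay above that in B16F0 in 10 members, with log2 differences of 1.74 for Col15a1, 0.68 for Col20a1, 0.33 for Col5a1, 0.27 for Lamb2, 0.24 for Lama5, 0.22 for Col4a1, 0.18 for Col4a2, 0.13 for Sparc, 0.12 for Fn1 and 0.12 for Col4a5. It lay below in 11, with log2 differences of -0.28 for Hspg2, -0.43 for Lamc1, -0.51 for Col11a2, -0.58 for Col12a1, -0.77 for Col18a1, -0.81 for Col9a2, -0.99 for Col9a1, -1.09 for Col6a1, -1.17 for Col14a1, -1.60 for Col10a1 and -1.73 for Col4a3. Standard errors were 0.02 to 0.55 and adjusted p 1.00e-11 to 0.0471. Over all genes tested, 15.3% passed above and 14.9% below. The melanocyte marker sum moved with treatment in the B16 lines, from 18579.5 to 18664 CPM down to 15770 to 15958 CPM in B16F0 and from 24442 to 24470.5 CPM down to 14947 to 15188 CPM in B16F10, and its part in these differences was not tested.

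The difference no longer passed when some 1 library was left out for Col10a1, Col12a1, Col14a1, Col1a2 and Col23a1 (B16 lines against Melan-A) and for Col11a2, Col12a1, Col14a1, Col18a1, Col4a3, Col4a5, Col6a1 and Col9a2 (B16F10 against B16F0).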

How the results depend on the processing

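Counting members that also moved by 1 or more on the log2 scale with SX-682 gave 8 in Melan-A cells, 3 in B16F0 and 11 in B16F10, and 10 and 7 for the differences of response (B16 mean less Melan-A, B16F10 less B16F0). At an adjusted p under 0.01 the last was 13 in place of 23. With at least 10 counts required in every library, 34 members could be tested and 31 differed from Melan-A in each untreated B16 line, in place of 47 and 49. Other counts of members stayed within 1.5 times under the scaling, filter, test, sample and leave-out alternatives, and response B16 mean less Melan-A has no fit on the compared libraries alone because it uses all 12. With the replicate number as a block (replicate block) the 8 counts were 37, 26, 32, 26, 21, 47, 49, 38, in the order of SX-682 in the 3 lines, the 2 differences of response and the 3 untreated comparisons. Libraries with the same number did not deviate together within a line (correlations 0.00108, 0.0222 and 0.00975), so the numbers are not taken as pairs. For 298 single-gene values, 5355 of 5567 alternative values kept direction and side of the threshold, 161 lost the call, 24 gained it and 27 turned sign, all 27 among values that had not passed the test. Those values were limited to called ones and to ones with both groups at 1 CPM or more, a limit set after sign changes in a wider set, nearly all in low uncalled members, had been seen. Col9a3 between untreated B16 lines was -0.012 with 10 counts in every library. The others turned when a library was left out, and their ranges over such fits follow. They were, with SX-682 in Melan-A, -0.0255 to 0.0133 for Col1a1. With SX-682 in B16F0, -0.52 to 0.21 for Col1a2, -0.53 to 0.022 for Col2a1, -0.41 to 0.22 for Col9a2, -0.38 to 0.10 for Col20a1. With SX-682 in B16F10, -0.0464 to 0.20 for Col2a1, -0.0383 to 0.00255 for Col5a1, -0.41 to 0.26 for Col11a2, -0.030 to 0.11 for Col12a1. Untreated B16F0 less Melan-A, -0.0756 to 0.24 for Col7a1, -0.16 to 0.28 for Col10a1. Untreated B16F10 less Melan-A, -0.26 to 0.18 for Col7a1, -0.0157 to 0.43 for Col10a1. Untreated B16F10 less B16F0, -0.0718 to 0.11 for Col9a3, -0.35 to 0.0939 for Col7a1, -0.18 to 0.45 for Col9a2, -0.0612 to 0.35 for Col10a1. With coding lengths (control and SX-682 of Melan-A, then of B16F0, then of B16F10), Col4a2 to Col4a1 was 1.55, 2.02, 0.465, 0.48, 1.32 and 1.32, Col1a2 to Col1a1 0.0174, 0.00617, 0.431, 0.281, 2.11 and 0.961, Lamb2 to Lamc1 0.287, 0.334, 0.55, 0.464, 0.363 and 0.495, Lamb1 to Lamc1 0.0303, 0.0167, 0.119, 0.505 and 0.535 without treated B16F0, and Col6a2 to Col6a1 in Melan-A 0.11 and 0.0902. Lengths set these shifts by construction, and the cause of the others was not tested. Depth limits members under the floor, for which no change could be detected.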
